A study of Mus musculus with 9 samples.

Results

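The immediate early genes described here are 10 genes chosen by their symbols from the deposited table of 54532 genes: *Fos*, *Fosb*, *Fosl1*, *Fosl2*, *Jun*, *Junb*, *Jund*, *Egr1*, *Atf3* and *Ier2*. All 10 were found, and each symbol belonged to 1 row. The tissue was the lambdoidal junction, where the nasal and maxillary prominences of the embryonic face meet and fuse to form the upper lip and primary palate. It was taken from mouse embryos of the strain C57BL/6J with no treatment or genetic change at 3 stages (E10.5, then E11.5, then E12.5), and bulk RNA-seq was performed on 3 libraries per stage. Each library was made from the pooled tissue of several embryos, so the spread between libraries is one between pools, and whether the pools of a stage came from separate litters is not given in the sources used here. The total count per library was 16581009 to 20836804.

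Immediate early genes are transcribed within minutes of a stimulus, without new protein being made first, and most of them encode transcription factors. FOS proteins (encoded by *Fos*, *Fosb*, *Fosl1* and *Fosl2*) pair with JUN proteins (*Jun*, *Junb* and *Jund*) through a leucine zipper to form AP-1, which binds DNA at TGACTCA, whereas EGR1 is a zinc finger factor that binds GC-rich sites. The genes respond to growth factors through MAP kinases and SRF, and are also known to respond to the handling and dissociation of tissue. In skin and bone, AP-1 is known for roles in the differentiation of keratinocytes, osteoblasts and osteoclasts.

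Of the 10 genes, 9 had enough reads to be tested in every comparison. *Fosl2* was upregulated at E12.5 against both earlier stages, by 1.68 ± 0.19 (SE) on the log2 scale against E10.5 and by 1.37 ± 0.14 against E11.5, and it had little spread within a stage. *Fos* was upregulated at E12.5 against E11.5 by 1.80 ± 0.35, with libraries that differed widely within E10.5 and E12.5. *Egr1* was upregulated at E12.5 against E10.5 by 1.16 ± 0.34, a call that was lost when any of 5 of the 6 libraries was left out. *Jun*, *Jund* and *Ier2*, the most abundant of the 10 per length, passed the threshold in no comparison of 2 stages.

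The sequences just upstream of the transcription start are given for *Fos* and *Fosl2*, the genes with a change past the threshold in the last interval, and for *Jun*, whose level was lower there. They are the 250 bases before the RefSeq start on the gene's own strand, in build GRCm38.p6, written 5′ to 3′ with motif matches in capitals. The *Fos* window lies at chr12:85473640-85473889 on the plus strand, that of *Fosl2* at chr5:32136222-32136471 on the plus strand and that of *Jun* at chr4:95052223-95052472 on the minus strand.
Fos: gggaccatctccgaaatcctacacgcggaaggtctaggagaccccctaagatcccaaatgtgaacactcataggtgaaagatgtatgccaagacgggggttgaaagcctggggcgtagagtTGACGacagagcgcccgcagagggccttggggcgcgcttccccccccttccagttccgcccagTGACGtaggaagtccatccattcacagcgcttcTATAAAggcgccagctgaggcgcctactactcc
Fosl2: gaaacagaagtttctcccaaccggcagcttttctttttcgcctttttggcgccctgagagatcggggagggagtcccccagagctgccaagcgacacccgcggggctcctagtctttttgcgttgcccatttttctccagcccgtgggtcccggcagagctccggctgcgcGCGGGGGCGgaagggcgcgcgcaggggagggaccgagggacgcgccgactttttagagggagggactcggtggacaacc
Jun: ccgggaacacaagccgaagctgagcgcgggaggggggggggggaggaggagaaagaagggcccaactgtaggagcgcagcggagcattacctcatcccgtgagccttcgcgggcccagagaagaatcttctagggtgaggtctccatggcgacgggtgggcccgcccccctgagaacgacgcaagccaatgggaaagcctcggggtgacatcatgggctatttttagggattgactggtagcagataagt

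The search covered 6 motifs on both strands, namely AP-1 (TGACTCA), CRE (TGACGTCA), the shorter CRE motif TGACG that is contained in it, EGR (GCGNGGGCG), the core promoter motif TATAAA and the CArG box bound by SRF. In *Fos*, TGACG was found at bases -129 to -125 and -66 to -62 from the start, and TATAAA at -33 to -28. In *Fosl2*, an EGR motif was found at -79 to -71, and in *Jun* no match was found. Windows for 7 of the 10 genes were searched, and *Fosl1*, *Egr1* and *Ier2* were not among them. Of the 7 windows, 4 held TGACG (*Fos*, *Fosb*, *Junb* and *Atf3*), which was found in 17.8% of all 32851 RefSeq promoter windows of the same length. An EGR motif was held by 2 (*Fosb* and *Fosl2*), and was found in 4.7% of all windows. TATAAA was found in 12.4% of all windows. No AP-1, CRE or CArG motif was found in these 7 windows, against shares of 4.46%, 1.55% and 1.47% of all windows. Only exact matches were counted, so variants that differ by a base were missed. The RefSeq start of *Jund* (chr8:70697739) lies upstream of the deposited span of the gene (chr8:70698949-70700616), and those of *Fosl2* and *Atf3* lie inside theirs. Motifs elsewhere around these genes, or in the genes not searched, were not covered. A match describes the letters only.

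**Figure D1:**
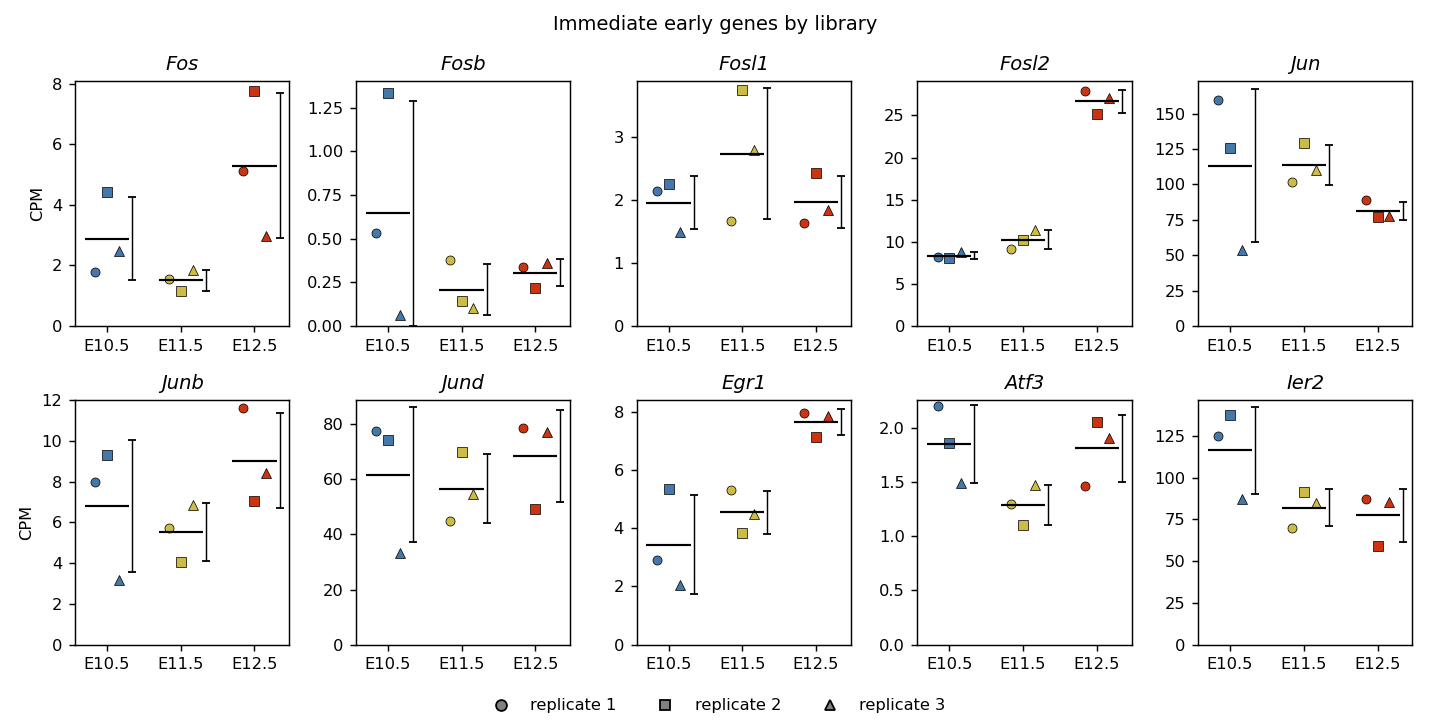
Level of each immediate early gene in each library, in CPM (read counts per scaled library total, not corrected for gene length) on a linear axis that starts at 0, by stage. Symbols mark the replicate, horizontal lines the mean and vertical bars ± 1 SD (n = 3, cut off at 0). *Fosl2* libraries lay within 25.2 to 27.9 CPM at E12.5, above 8.07 to 11.4 CPM before, whereas *Jun*, *Junb* and *Jund* were lowest at E10.5 in replicate 3.

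*Fosl2* encodes FRA-2, a FOS protein without the strong transactivation domain of FOS. Its levels were 8.20, 8.07 and 8.80 CPM in E10.5 replicates 1, 2 and 3, 9.15, 10.2 and 11.4 CPM at E11.5, and 27.9, 25.2 and 27.0 CPM at E12.5. The E12.5 libraries lay above all others, and the E11.5 libraries lay above those of E10.5. The change from E10.5 to E11.5, 0.30 ± 0.16 on the log2 scale, did not pass the threshold (edgeR adjusted p = 0.266). E12.5 was 3.21-fold of E10.5 (adjusted p = 0.000115 by the quasi-likelihood test of edgeR, with the Benjamini-Hochberg method over all genes tested) and 2.59-fold of E11.5 (adjusted p = 0.000252). With each library left out in turn, the log2 changes were 1.65 to 1.73 and 1.29 to 1.44, and every adjusted p stayed under the threshold of 0.05. In bulk tissue, more cells of a type and more RNA per cell cannot be told apart. *Fosl2* (ENSMUSG00000029135) lies at chr5:32135801-32157842, and its exons overlap those of no other gene.

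*Fos* encodes the founding member of the family and is among the most quickly induced genes of a stimulated cell. Its levels were 1.78, 4.41 and 2.48 CPM in the E10.5 libraries, 1.56, 1.15 and 1.84 CPM in those of E11.5 and 5.13, 7.76 and 2.98 CPM in those of E12.5, on counts of 24 to 144 reads. The E12.5 libraries lay above those of E11.5, but E12.5 replicate 3 lay below E10.5 replicate 2. E12.5 was 3.48-fold of E11.5 (edgeR adjusted p = 0.00872). Without E12.5 replicate 1 the log2 change was 1.83 and the adjusted p 0.053, so the call was lost. Against E10.5, the log2 change at E12.5 was 0.88 ± 0.42 (adjusted p = 0.148) and that at E11.5 -0.93 ± 0.38 (adjusted p = 0.162), and neither passed. Without E10.5 replicate 3, the difference between E11.5 and E10.5 passed, at -1.03 (adjusted p = 0.0469). *Fos* (ENSMUSG00000021250) lies at chr12:85473890-85477273, and its exons overlap those of no other gene.

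*Fosl1* encodes FRA-1, another FOS protein without that domain. It was at 2.14, 2.26 and 1.49 CPM in the E10.5 libraries, 1.67, 3.75 and 2.79 CPM in those of E11.5 and 1.63, 2.43 and 1.85 CPM in those of E12.5. The libraries of all stages overlapped, and the log2 change was 0.48 ± 0.35 from E10.5 to E11.5 (edgeR adjusted p = 0.404) and -0.48 ± 0.33 from E11.5 to E12.5 (adjusted p = 0.352). *Fosl1* (ENSMUSG00000024912) is listed at chr19:5447703-5455945. GENCODE vM21 gives it other coordinates, under which 57.21% of its exon bases overlap the opposite-strand gene *Ccdc85b*. *Ccdc85b* had 275 to 797 counts per library and *Fosl1* 24 to 78, so the level of *Fosl1* is uncertain, although the deposited spans of the 2 genes share 0 bases.

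*Fosb* was near the limit of detection. Its counts were 9, 23 and 1 reads in the E10.5 libraries, 7, 3 and 2 reads in those of E11.5 and 6, 4 and 6 reads in those of E12.5. The highest and the lowest of the 9 libraries were both E10.5 libraries. The gene was removed by the filter on low counts and was not tested in the main comparisons. With every gene of at least 1 count kept, its log2 changes were -1.60 from E10.5 to E11.5 (edgeR adjusted p = 0.296) and 0.51 from E11.5 to E12.5 (adjusted p = 0.755). *Fosb* (ENSMUSG00000003545) lies at chr7:19302696-19310051.

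*Jun* encodes c-JUN, the main partner of FOS. It was at 159.7, 126.0 and 53.8 CPM in the E10.5 libraries, 101.3, 129.0 and 110.4 CPM in those of E11.5 and 88.7, 77.1 and 77.6 CPM in those of E12.5. The E12.5 libraries lay below those of E11.5, whereas E10.5 held both the highest and the lowest library of the 9. From E11.5 to E12.5, *Jun* was lower by a log2 change of -0.49 ± 0.13 (edgeR adjusted p = 0.0331), which did not reach the fold threshold of 1. This adjusted p rose to between 0.0522 and 0.165 when any E11.5 library or E12.5 replicate 1 was left out. The change from E10.5 to E11.5 was 0.01 ± 0.33 (adjusted p = 0.989), and without E10.5 replicate 3 it was -0.32 (adjusted p = 0.0297). *Jun* (ENSMUSG00000052684) lies at chr4:95049034-95052222, and 7.28% of its exon bases overlap the opposite-strand gene *Junos*, which had 14 to 22 counts per library.

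*Junb*, which often opposes JUN at shared targets, was at 7.96, 9.29 and 3.16 CPM in the E10.5 libraries, 5.70, 4.04 and 6.85 CPM in those of E11.5 and 11.6, 7.06 and 8.41 CPM in those of E12.5. The E12.5 libraries lay above those of E11.5 and overlapped those of E10.5. The log2 change from E11.5 to E12.5 was 0.70 ± 0.24 (edgeR adjusted p = 0.0852) and did not pass. *Junb* (ENSMUSG00000052837) lies at chr8:84974484-84978718, and 7.52% of its exon bases overlap the opposite-strand gene *Prdx2*. *Prdx2* had 12083 to 17917 counts per library, and whether reads were counted by strand is not stated, so the level of *Junb* is uncertain.

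*Jund*, the JUN gene that is expressed most steadily in resting cells, was at 77.6, 74.4 and 33.4 CPM in the E10.5 libraries, 45.0, 70.0 and 54.8 CPM in those of E11.5 and 78.8, 49.2 and 77.3 CPM in those of E12.5. All stages overlapped. Its log2 changes were -0.12 ± 0.30 from E10.5 to E11.5, 0.16 ± 0.30 from E10.5 to E12.5 and 0.27 ± 0.20 from E11.5 to E12.5 (edgeR adjusted p = 0.831, 0.746 and 0.403). *Jund* (ENSMUSG00000071076) lies at chr8:70698949-70700616. Although 52.58% of its exon bases overlap the opposite-strand gene *Gm11175*, the latter was listed at 0 counts in all 9 libraries.

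*Egr1* (ENSMUSG00000038418), on chromosome 18, encodes a zinc finger factor downstream of ERK signaling. It was at 2.91, 5.34 and 2.04 CPM in the E10.5 libraries, 5.33, 3.85 and 4.48 CPM in those of E11.5 and 7.95, 7.12 and 7.87 CPM in those of E12.5. The E12.5 libraries lay above those of both earlier stages, and E10.5 and E11.5 overlapped. E12.5 was 2.23-fold of E10.5 (edgeR adjusted p = 0.0282). The log2 change was 0.90 without E10.5 replicate 3 (adjusted p = 0.0357), which is under the fold threshold. It was 1.04 without E10.5 replicate 1 and 1.13, 1.21 and 1.14 without E12.5 replicates 1, 2 and 3, where the adjusted p was 0.0756, 0.0932, 0.0618 and 0.0859. Against E11.5, the log2 change at E12.5 was 0.74 ± 0.19 (adjusted p = 0.0284), under the fold threshold. That adjusted p rose to between 0.0528 and 0.145 without E11.5 replicate 2 or 3 or E12.5 replicate 1 or 3.

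*Atf3* encodes a stress-induced bZIP factor, and was at 2.20, 1.86 and 1.49 CPM in the E10.5 libraries, 1.29, 1.11 and 1.47 CPM in those of E11.5 and 1.47, 2.05 and 1.91 CPM in those of E12.5. The E11.5 libraries lay below those of E10.5, with a log2 change of -0.51 ± 0.29 that did not pass (edgeR adjusted p = 0.294). From E10.5 to E12.5 the change was -0.02 ± 0.34 (adjusted p = 0.970). *Atf3* (ENSMUSG00000026628) lies at chr1:191170296-191218039.

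*Ier2*, an immediate early gene that encodes a nuclear protein, was at 124.9, 137.2 and 87.1 CPM in the E10.5 libraries, 69.7, 91.3 and 84.8 CPM in those of E11.5 and 87.3, 59.1 and 85.5 CPM in those of E12.5. E10.5 replicates 1 and 2 lay above all other libraries, and replicate 3 lay among those of the later stages. The log2 change was -0.50 ± 0.18 from E10.5 to E11.5 (edgeR adjusted p = 0.114) and -0.58 ± 0.22 from E10.5 to E12.5 (adjusted p = 0.0796). Without E10.5 replicate 3 the values were -0.67 and -0.75, with adjusted p = 0.000191 and 0.0144, both under the fold threshold. After each library's trend over GC content was removed, they were -0.43 and -0.73 (adjusted p = 0.0118 and 0.0046). *Ier2* (ENSMUSG00000053560) lies at chr8:84661331-84662852.

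**Figure D2:**
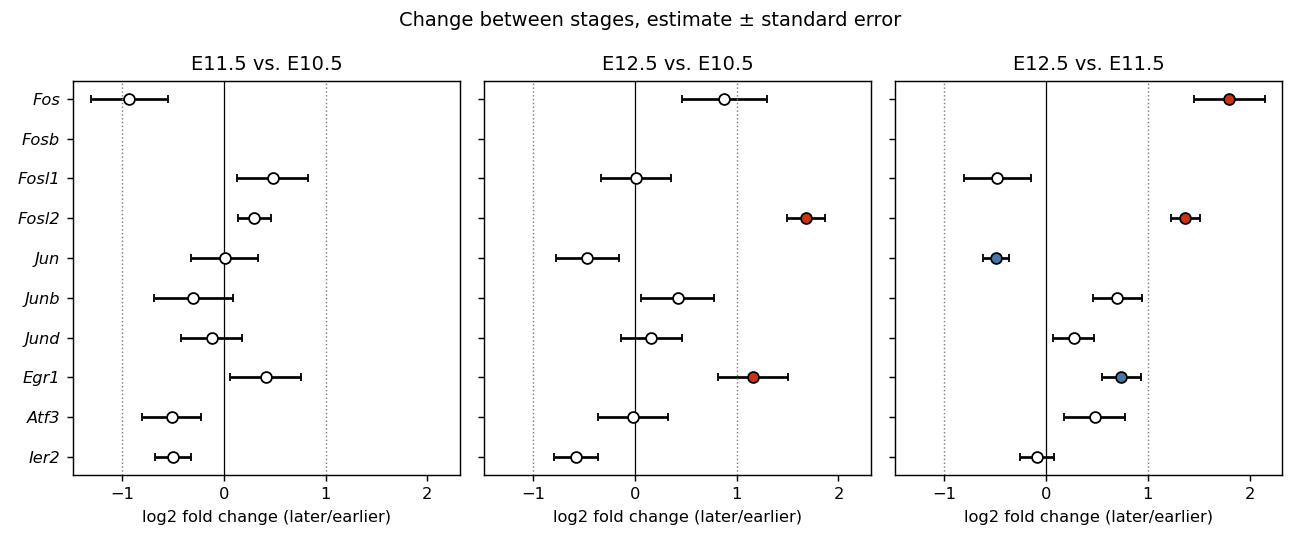
Log2 fold change (later over earlier stage) for each immediate early gene, with bars of ± 1 SE, from edgeR on 3 libraries per stage. Red points had an adjusted p of at most 0.05 and an absolute log2 change of at least 1, blue points passed on the adjusted p alone, and dotted lines mark the fold threshold. *Fosb* was not tested. Red points are *Fosl2* (1.68) and *Egr1* (1.16) against E10.5 and *Fos* (1.80) and *Fosl2* (1.37) against E11.5, and the left panel holds none.

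Between E10.5 and E11.5, 0 of the 9 genes tested passed the threshold with edgeR and 0 with DESeq2, and 2 (*Fos* and *Ier2*) had an unadjusted p under 0.05 with edgeR. Of all 15708 genes tested, 6.07% passed with edgeR (3.46% higher and 2.61% lower at E11.5) and 27.9% had an unadjusted p under 0.05. With DESeq2, 6.29% passed. With no fold threshold, 0 of the 9 genes passed, against 11.8% of all genes. The libraries of both stages did not overlap for *Fosl2* and *Atf3*, 2 of the 9 genes, against 36.7% of all genes. The median log2 change was -0.12 over the 9 genes and -0.03 over all genes. When E10.5 replicate 3 was left out, 5 of the 9 genes had an adjusted p of at most 0.05, against 39.6% of all genes. They were *Fos*, *Jun*, *Junb*, *Jund* and *Ier2*, all lower at E11.5, of which only *Fos* reached the fold threshold. *Junb* then had a log2 change of -0.64 (adjusted p = 0.0287) and *Jund* one of -0.42 (adjusted p = 0.0253). With the trend with GC content removed as well, *Ier2* was the only one of these 5 with an adjusted p under 0.05 (log2 change -0.42, adjusted p = 0.00181). The number of all genes past the threshold was 1592 without that library and 954 with it.

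Between E10.5 and E12.5, 2 of the 9 genes were upregulated (*Fosl2* and *Egr1*) and 0 downregulated, against 9.97% and 5.08% of all 15899 genes tested, or 15.0% in either direction. The same 2 genes passed with DESeq2 (12.4% of all genes) and with no fold threshold (24.6%), and 3 had an unadjusted p under 0.05 (37.2%). The libraries did not overlap for the same 2 genes, against 42.4% of all genes. The median log2 change was 0.16, and -0.01 over all genes. Between E11.5 and E12.5, 2 of the 9 genes were upregulated (*Fos* and *Fosl2*), against 4.14% of all 15808 genes tested, and 0 were downregulated, against 0.962%, or 5.10% in either direction. DESeq2 gave the same 2 genes (4.73% of all genes). With no fold threshold, 4 of the 9 passed, with *Jun* lower and *Egr1* higher besides those, against 12.2% of all genes. These passes of *Jun* and *Egr1* were lost with all 9 libraries in 1 fit (edgeR adjusted p = 0.33 and 0.147), that of *Jun* with upper quartile normalization (0.0516) and that of *Egr1* after the GC correction (0.0593). The libraries did not overlap for 5 of the 9, of which *Fos*, *Fosl2*, *Junb* and *Egr1* were higher and *Jun* lower at E12.5, against 35.3% of all genes. The median log2 change was 0.48, and 0.02 over all genes. The comparisons share libraries, so that the 2 with E12.5 as the later stage are not independent of each other.

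When the 3 stages were tested together on all 9 libraries, 3 of the 9 genes differed between stages, against 28.3% of all 16375 genes tested. These were *Fosl2* (edgeR adjusted p = 1.2e-05), *Fos* (0.0141) and *Egr1* (0.0277). *Ier2* had an adjusted p of 0.0653, and it passed with DESeq2 and after the trend with GC content was removed. Without E10.5 replicate 3, *Jun* and *Ier2* passed too, which made 5 genes. *Egr1* lost its call in this test without E10.5 replicate 1 or E12.5 replicate 1 or 3, and *Fos* without E12.5 replicate 2.

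The spread within a stage was then set beside the difference between stages, in log2 CPM with a prior count of 2, as a description with no test. For each gene, the SD within stages was pooled over the 3 stages, and the share of the variance over the 9 libraries that lay between the stage means was computed. Over all 16375 genes, the median SD was 0.266, the median range of the 3 stage means 0.503 and the median share between stages 49.2%. *Fosl2* had an SD of 0.108, at percentile 5.9 of all genes, and 98.5% of its variance lay between stages. Its SD was close to the 0.088 that counting error alone gives at its mean count. *Fos* had an SD of 0.566 (percentile 89.1), against a counting error of 0.19, and 67.9% of its variance lay between stages. *Egr1* had an SD of 0.416 and a share of 69.1%.

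For the JUN genes, the spread within a stage was large beside the difference between stages. *Jun* had an SD of 0.491 (percentile 84.0) and a range of stage means of 0.48, *Junb* an SD of 0.563 (percentile 88.9) and a range of 0.70, and *Jund* an SD of 0.488 (percentile 83.7) and a range of 0.27. Shares of 20.2%, 29.1% and 7.6% of their variance lay between stages. Counting error alone gives an SD of 0.033 for *Jun* and 0.043 for *Jund*, well below the SDs observed. Most of it was in the E10.5 libraries, where the SDs were 0.825, 0.823 and 0.682, against 0.176, 0.378 and 0.318 in those of E11.5 and 0.114, 0.359 and 0.384 in those of E12.5. *Ier2* had an SD of 0.294 with a share of 53.3%, and *Atf3* one of 0.234, which is below its counting error of 0.266. *Fosl1* had an SD of 0.405 with 24.9% between stages, and *Fosb*, at a few reads per library, an SD of 0.975. The median SD of the 10 genes was 0.452, and 0.313 without E10.5 replicate 3. The SDs given here were not corrected for GC content.

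**Figure D3:**
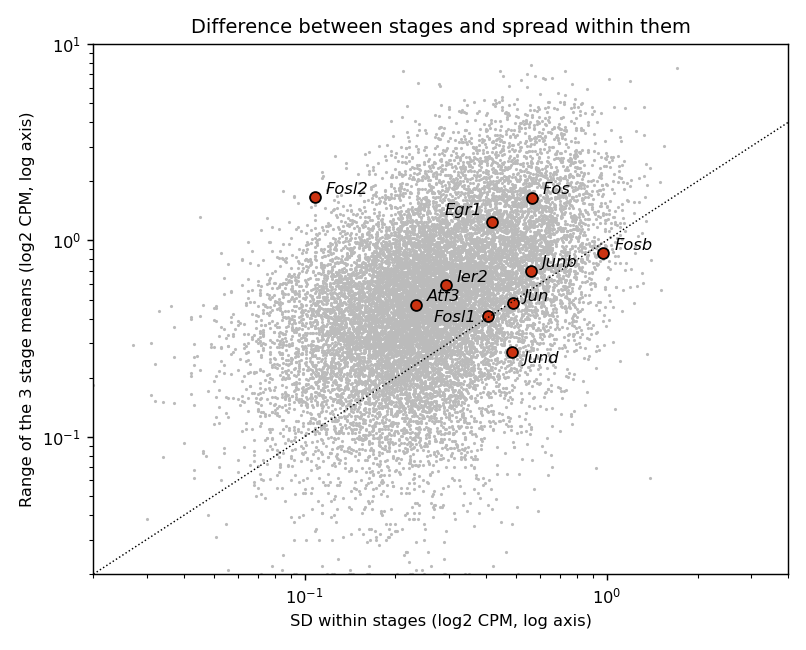
Range of the 3 stage means against the SD within stages, both in log2 CPM on log axes, for the immediate early genes (red) and all genes tested in 9 libraries (grey, values under 0.02 drawn at 0.02). On the dotted line the range equals the SD. *Fosl2* stands at the left with a range of 1.66 and an SD of 0.108, *Fos* has nearly the same range (1.65) with an SD of 0.566, and *Jun*, *Jund* and *Fosb* lie on or below the line.

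E10.5 replicate 3 stood apart from the other E10.5 libraries, and several of the genes moved with it. It was the lowest E10.5 library for 8 of the 10 genes, all but *Fos* and *Fosl2*, against 44.1% of all genes. Its log2 CPM relative to the mean of replicates 1 and 2 was -1.41 for *Junb*, -1.40 for *Jun*, -1.18 for *Jund*, -0.91 for *Egr1*, -0.59 for *Ier2*, -0.53 for *Fosl1*, -0.42 for *Atf3* and -0.18 for *Fos*, and 0.11 for *Fosl2*. *Fosb* differed by -2.48, on 1 read. This library also differed from the others by GC content. From the fifth of all genes with the lowest GC content to the fifth with the highest, its median difference went from 0.49 to -0.47. The longest transcripts of the 10 genes have a median GC content of 56.6%, against 48.7% for all genes with a count.

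After the GC trend was removed, the difference was 0.03 for *Ier2*, -0.05 for *Fosl1*, -0.28 for *Jund*, -0.48 for *Egr1*, -0.72 for *Junb* and -1.06 for *Jun*. The value for *Fosl2* became 0.33. The correction thus brought *Ier2* and *Fosl1* to within 0.05 of the other E10.5 libraries, whereas *Jun* and *Junb* were still the furthest below them among the tested genes. The share of variance between stages went from 53.3% to 84.5% for *Ier2* and from 20.2% to 36.3% for *Jun*, and it was 8.9% for *Jund*. After the correction, the SD within stages was 0.379 for *Jun*, 0.359 for *Junb*, 0.202 for *Jund* and 0.16 for *Ier2*. The median over all genes was then 0.234, so *Jund* and *Ier2* were below it and *Jun* and *Junb* above it.

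**Figure D4:**
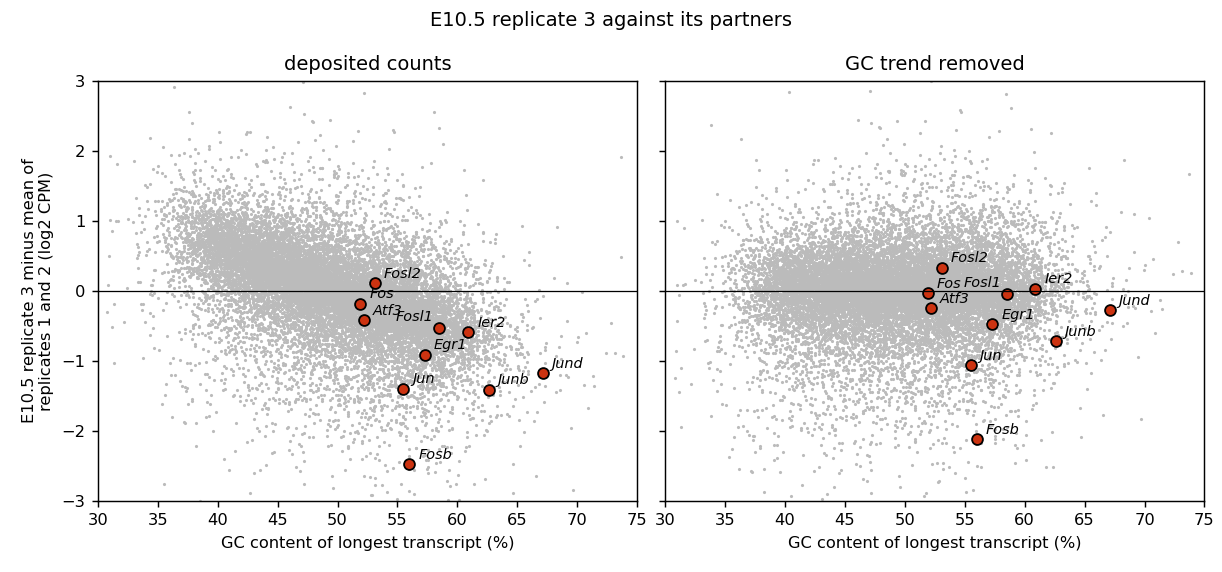
Log2 CPM of E10.5 replicate 3 minus the mean of E10.5 replicates 1 and 2, against the GC content of the longest transcript of each gene in percent, for the immediate early genes (red) and all genes tested (grey, within the limits of the axes). Before the correction (left) the differences fall as GC content rises, with *Jun* at -1.40 and *Ier2* at -0.59, and after it (right) *Jun* is at -1.06 and *Ier2* at 0.03.

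Summed levels of cell type markers also differed in this library. The sums were not corrected for GC content, so a difference in cell makeup and the GC trend of this library cannot be told apart. Of the lists of 10 markers each, none had a gene at 0 in all libraries. The facial mesenchyme markers summed to 1201 CPM in E10.5 replicate 3, against 1991 and 1992 CPM in the other E10.5 libraries, 2681 to 2846 at E11.5 and 2739 to 3049 at E12.5. The endothelial markers summed to 140 CPM there, and to between 331.9 and 390.3 CPM in every other library. The surface epithelial markers summed to 759.9 CPM there, against 418.8 and 467.3 CPM in the other E10.5 libraries, 465.5 to 489.8 at E11.5 and 730.5 to 816.6 at E12.5. The part of these differences in the levels of the immediate early genes was not tested.

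Some marker sums also moved with stage in the same direction as *Fosl2*, *Fos* and *Egr1*. Neuronal markers summed to 267.8 to 317.1 CPM in the E10.5 libraries, 344.8 to 381.6 in those of E11.5 and 546.9 to 574.6 in those of E12.5. Of the 10 neuronal markers, 3 (*Stmn2*, *Ncam1* and *Gap43*) were upregulated between E10.5 and E12.5, against 9.97% of all genes. Between E11.5 and E12.5, 2 (*Stmn2* and *Ncam1*) were, against 4.14%. The median log2 changes of the list were 0.46 and 0.24. *Elavl3* (-0.49) and *Map2* (-0.56) were lower at E12.5 than at E10.5 without passing. Of the 10 epithelial markers, 3 were upregulated (*Krt5*, *Krt14* and *Krt15*) and 1 downregulated (*Krt18*) between E10.5 and E12.5, against 9.97% and 5.08% of all genes. The same 3 were upregulated between E11.5 and E12.5, against 4.14%. The median log2 changes of this list were 0.24 and 0.15. Of the 10 facial mesenchyme markers, 4 were upregulated and 1 downregulated between E10.5 and E12.5, against 9.97% and 5.08% of all genes. Between E11.5 and E12.5, 1 was upregulated, against 4.14%. Macrophage markers summed to 27.7 to 39.8 CPM in the E10.5 libraries, 33.5 to 39.8 in those of E11.5 and 42.2 to 45.7 in those of E12.5. The E10.5 and E11.5 libraries overlapped. Between E10.5 and E12.5, 1 of 10 was upregulated (*C1qa*, 1.67 ± 0.48), near the 9.97% of all genes. *Ptprc* (-0.39) and *Cd68* (-0.32) went the other way without passing, and the median log2 change of the list was 0.44. The sum of the forebrain and eye markers was 269.4 to 389.8 CPM in the E10.5 libraries, 97.8 to 101.8 in those of E11.5 and 125 to 166.6 in those of E12.5. It was thus lower at both later stages than at E10.5, and higher in the E12.5 than in the E11.5 libraries without overlap, and 8 of 10 were downregulated in E11.5 vs. E10.5, against 2.61% of all genes. The osteoblast and chondrocyte markers summed to 646.3 to 1080 CPM in the E10.5 libraries, 500.5 to 628.7 in those of E11.5 and 569.7 to 747.3 in those of E12.5, and the stages overlapped. Of 6 of these markers tested between E11.5 and E12.5, 3 were upregulated, against 4.14% of all genes, and their median log2 change was 1.08. The part of these cells in the changes was not tested.

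At E12.5 the libraries differed in a pattern of their own. Replicate 1 was the highest for 6 of the 10 genes (*Fosl2*, *Jun*, *Junb*, *Jund*, *Egr1* and *Ier2*), against 27.6% of all genes, and replicate 2 was the lowest for these 6 and *Fosb*, 7 in all, against 34.9% of all genes. Replicate 2 was the highest, however, for *Fos*, *Fosl1* and *Atf3*. The library with the most *Fos* at E12.5 was thus the one with the least *Jun*, *Junb*, *Egr1* and *Ier2*. The margin was small for *Jun* (77.1 CPM, against 77.6 CPM in replicate 3), and *Egr1* spanned only 7.12 to 7.95 CPM. These levels were not corrected for GC content, and its part in the order of the libraries was not tested. At E10.5, replicate 2 was the highest for 6 genes (*Fos*, *Fosb*, *Fosl1*, *Junb*, *Egr1* and *Ier2*), against 28.4% of all genes.

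Levels were compared between genes as CPM per kilobase of gene length. At E10.5, *Ier2* was the most abundant with 76.5 ± 17.2 (SD, n = 3), followed by *Jund* with 37.1 ± 14.8 and *Jun* with 35.5 ± 17.0. *Junb* had 2.96 ± 1.40, *Fos* 1.23 ± 0.579, *Fosl1* 1.15 ± 0.245, *Fosl2* 0.863 ± 0.040, *Atf3* 0.858 ± 0.165 and *Egr1* 0.765 ± 0.381, and *Fosb* was the lowest with 0.103 ± 0.103. From *Junb* to *Egr1*, the libraries of each gene overlapped those of the next in the order, as did those of *Jund* and *Jun*. At E11.5 the order began with *Ier2* (53.8 ± 7.28), *Jun* and *Jund*, and *Fos* was in place 8 with 0.646 ± 0.147. At E12.5, *Fosl2* was in place 5 with 2.76 ± 0.143, below *Junb* (3.92 ± 1.02) without overlap and overlapping *Fos* (2.25 ± 1.02). *Ier2* (50.8 ± 10.4) then overlapped *Jund* (41.0 ± 9.99).

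The makeup of the FOS and JUN families was computed on the same scale, as values with no test, since with 3 libraries per stage the smallest p of an exact permutation test is 0.1. The 4 FOS genes together were at 2.94, 4.25 and 2.84 CPM per kilobase in the E10.5 libraries, 2.65, 3.76 and 3.62 in those of E11.5 and 6.07, 7.36 and 5.20 in those of E12.5. The E12.5 libraries lay above all others. The 3 JUN genes together were at 100.1, 88.1 and 38.3 CPM per kilobase in the E10.5 libraries, 61.3, 84.2 and 70.4 in those of E11.5 and 80.1, 56.8 and 74.4 in those of E12.5, with overlap between all stages. FOS genes made up 4.79% ± 2.03 (SD, n = 3) of the sum of both families in the E10.5 libraries, 4.44% ± 0.395 in those of E11.5 and 8.35% ± 2.72 in those of E12.5.

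*Fosl2* made up 26.8% ± 6.41 of the FOS family in the E10.5 libraries, 32.1% ± 3.90 in those of E11.5 and 45.5% ± 9.32 in those of E12.5. *Fosl1* went from 34.8% ± 6.73 and 46.8% ± 10.8 to 18.6% ± 2.60, and its E12.5 libraries lay below those of both earlier stages. *Fos* made up 35.7% ± 9.28, 19.9% ± 6.21 and 35.1% ± 10.3. Within the JUN family, *Jun* made up 46.3% ± 3.26, 49.7% ± 1.96 and 36.7% ± 5.21, and *Jund* 49.8% ± 3.01, 46.9% ± 2.89 and 57.8% ± 5.28. At E12.5, all 3 libraries had a smaller *Jun* share than any earlier library. The levels behind these shares were not corrected for GC content, which was 67.1% for *Jund* and 55.5% for *Jun*. The part of GC content in the shares was not tested, and the FOS shares include *Fosl1*, whose level is uncertain.

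**Figure D5:**
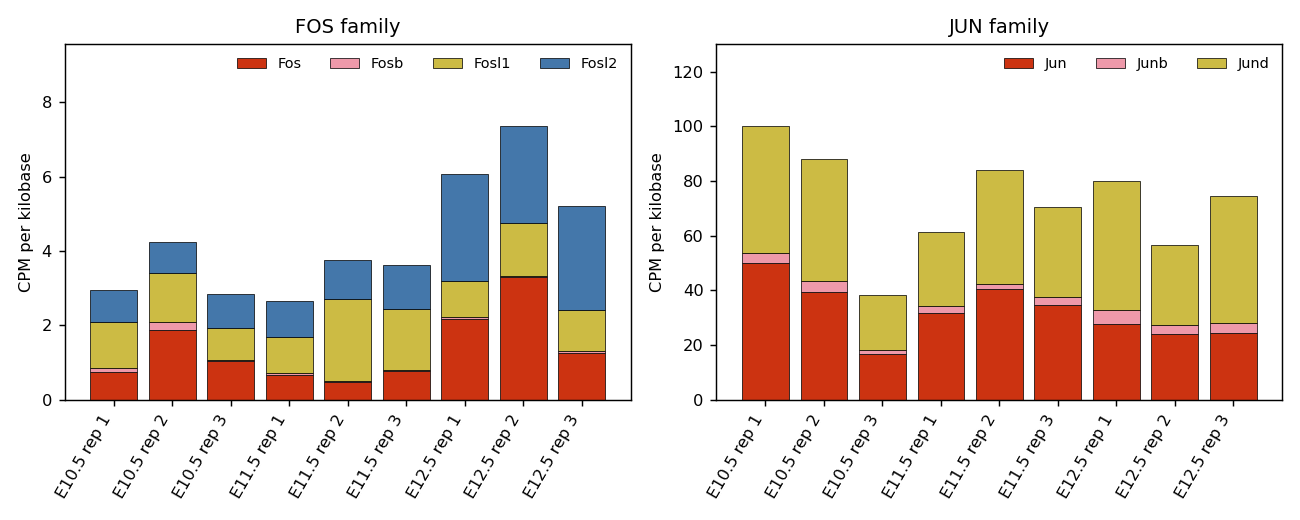
Summed level of the FOS genes (left) and JUN genes (right) in each of the 9 libraries, in CPM per kilobase on linear axes that start at 0, with each gene as a part of the bar. FOS sums are 5.20 to 7.36 at E12.5 and at most 4.25 before, and the JUN sum is lowest, at 38.3, in E10.5 replicate 3.

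Other genes of the same response were counted from fixed lists. Of 46 other immediate early and early response genes, 42 or 43 were tested. Between E10.5 and E11.5, 4 of 42 were upregulated and 1 downregulated, against 3.46% and 2.61% of all genes. They were *Klf4* (log2 change 2.30 ± 0.23), a transcription factor of epithelial differentiation, the kinase genes *Plk2* (1.53 ± 0.14) and *Sgk1* (1.35 ± 0.25), the growth arrest gene *Gadd45b* (1.17 ± 0.22) and, downregulated, *Plk3* (-1.37 ± 0.18). Between E10.5 and E12.5, 12 of 43 were upregulated, against 9.97% of all genes, and 1 downregulated, against 5.08%, led by *Klf4* (3.80 ± 0.23), *Gadd45b* (2.59 ± 0.27), *Plk2* (2.42 ± 0.17), the GTPase gene *Gem* (2.13 ± 0.40), the nuclear receptor gene *Nr4a3* (1.85 ± 0.47) and *Ier3* (1.75 ± 0.36). The median log2 change of the list was 0.38, and -0.01 over all genes.

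Between E11.5 and E12.5, 9 of the 43 were upregulated, against 4.14% of all genes, and 0 downregulated with edgeR, against 0.962%, with a median log2 change of 0.32 and 0.02 over all genes. An unadjusted p under 0.05 in either direction was found for 20 of the 43, against 29.6% of all genes. *Egr3*, a relative of *Egr1*, was at 0.155 CPM at E11.5 and 0.933 CPM at E12.5 (2.55 ± 0.49). It was under the filter on low counts between E10.5 and E11.5 and was tested only where E12.5, the stage with the higher level, took part. The other large changes were those of *Nr4a3* (1.95 ± 0.33), the bZIP factor gene *Cebpb* (1.71 ± 0.27), *Ier3* (1.53 ± 0.27), *Klf4* (1.5 ± 0.19) and *Gadd45b* (1.40 ± 0.19). Other classical members of the response, picked after their values were seen, did not pass. Between E11.5 and E12.5 the log2 change was 0.13 ± 0.17 for *Nr4a1* (edgeR adjusted p = 0.623), -0.07 ± 0.16 for the phosphatase gene *Dusp1* (0.809) and 0.09 ± 0.14 for *Btg2* (0.696). At E10.5, replicate 3 was the lowest library for 32 of 43 genes of this list, or 74.4%, against 44.1% of all genes.

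Among 24 AP-1 partners and related bZIP factors, 21 were tested. Between E10.5 and E11.5, 0 passed with edgeR in either direction, against 6.07% of all genes, and 7 had an unadjusted p under 0.05, against 27.9%. None was downregulated in the other comparisons with edgeR, against 5.08% and 0.962% of all genes. There, 5 (E12.5 against E10.5) and 10 (E12.5 against E11.5) of the 21 had an unadjusted p under 0.05 in either direction, against 37.2% and 29.6%. Upregulated genes included *Batf*, which encodes a partner of JUN proteins (log2 change 1.80 ± 0.47), and *Atf5* (1.25 ± 0.23) at E12.5 against E10.5, and *Maf* (1.25 ± 0.17) at E12.5 against E11.5.

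Upstream of these genes, 1 of the 8 tested SRF and TCF regulators was upregulated between E10.5 and E12.5, against 9.97% of all genes. It was *Nab2* (1.19 ± 0.34), which encodes a corepressor of EGR1 and is itself an EGR1 target. In the other comparisons none passed in either direction with edgeR, and 3 of 9 and 0 of 8 had an unadjusted p under 0.05, against 27.9% and 29.6% of all genes. Of 19 MAP kinase genes, *Mapk12*, which encodes p38 gamma, was downregulated, by -1.54 ± 0.14 at E11.5 and -2.35 ± 0.20 at E12.5 against E10.5, where 2.61% and 5.08% of all genes were, and none was upregulated with edgeR. Unadjusted p-values under 0.05 in either direction numbered 6 and 4 of 19 there and 5 between E11.5 and E12.5, where none passed, against 27.9%, 37.2% and 29.6% of all genes.

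Of 22 known AP-1 target genes, 11 or 13 were tested. Between E10.5 and E12.5, 5 of 13 were upregulated and 1 downregulated, against 9.97% and 5.08% of all genes. *Anxa1*, a phospholipid-binding protein gene, went from 0.878 to 28.7 CPM (5.03 ± 0.26), and the gelatinase gene *Mmp9* from 0.262 to 2.38 CPM (3.17 ± 0.55). *Mmp9* was under the filter on low counts between E10.5 and E11.5 and was tested only where E12.5, the stage with the highest level, took part. The others were *Lor* (1.49 ± 0.50), a gene of the cornified envelope, the membrane protease gene *Mmp14* (1.22 ± 0.19), the hyaluronan receptor gene *Cd44* (1.11 ± 0.25) and, downregulated, the cyclin gene *Ccnd1* (-1.35 ± 0.20). Between E11.5 and E12.5, *Anxa1* (2.87 ± 0.21), *Mmp9* (2.14 ± 0.37) and *Cd44* (1.46 ± 0.16) were upregulated, 3 of 13 against 4.14% of all genes. Between E10.5 and E11.5, *Anxa1* (2.15 ± 0.32) was, 1 of 11 against 3.46%.

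Heat shock and dissociation stress genes were counted beside the immediate early genes, since handling of tissue is known to raise both kinds. Of the 17 genes, all tested, 0 passed with edgeR between E10.5 and E11.5, against 6.07% of all genes, and 6 had an unadjusted p under 0.05, against 27.9%. Between E10.5 and E12.5, the small heat shock gene *Hspb1* was upregulated (1.36 ± 0.31), against 9.97% of all genes. The chaperone genes *Hsp90aa1* (-1.37 ± 0.32) and *Hspd1* (-1.02 ± 0.22) were downregulated, against 5.08%. In E10.5 replicates 1, 2 and 3, *Hsp90aa1* was at 1566, 1632 and 3902 CPM, against 881 to 948 CPM at E12.5. *Hspd1* was at 765, 870 and 1187 CPM, against 390 to 554 CPM, so both were highest in E10.5 replicate 3. Between E11.5 and E12.5 only *Hspb1* passed (1.01 ± 0.17), 1 of 17 against 4.14% of all genes upregulated. The stress-inducible *Hspa1a*, named after its values were seen, was at 1.01, 1.34 and 0.68 CPM in the E10.5 libraries, 1.13, 0.34 and 0.74 CPM in those of E11.5 and 3.38, 2.48 and 0.95 CPM in those of E12.5, with a log2 change of 1.63 ± 0.51 from E11.5 to E12.5 (edgeR adjusted p = 0.0617). E10.5 replicate 3, the lowest E10.5 library for 8 of the 10 immediate early genes, was the highest for 10 of the 17 heat shock and stress genes, against 42.5% of all genes. A part of handling in the levels was not tested.

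The genes with the most similar course were searched by the root mean square difference of log2 CPM, each gene centred on its own mean, over the 9 libraries and among 16374 genes. For *Fosl2* these were *Gstm1* (0.068), *Cdc42ep3* (0.162) and *Hs3st5* (0.187), where a flat course would differ by 0.731. *Gstm1*, a glutathione transferase gene, was at 13.6, 17.3 and 44.6 CPM at the 3 stages. For *Egr1* they were *Esm1* (0.191), *Slc31a2* (0.215) and *Colgalt2* (0.220), against 0.611 for a flat course. For *Fos* they were *Sh3rf3* (0.282), *Tmem28* (0.355) and *Ky* (0.366), against 0.817. The differences cannot be compared directly between *Fosl2* and *Fos*, since counting error alone gives an SD of 0.088 for *Fosl2* and 0.19 for *Fos*. The named genes are the closest of 16374, so small differences are partly a result of the search.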

How the data were processed

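Total RNA of 9 pools of lambdoidal junction tissue (3 per stage) was sequenced after TruSeq RNA library preparation. Per the paper's methods and the submitters' processing notes, the authors mapped reads to GRCm38/mm10 with HISAT2 2.0.5 and counted them with featureCounts. Strand setting and treatment of reads with several positions are not given in the sources used here. In the deposited table, raw read counts made by the authors are given for each gene and library, and only these were tested. The deposited FPKM columns, the authors' group means of normalized signal, their log2 fold changes and their p-values (from DESeq2) were not used. Depth was 16581009 to 20836804 counts. Reads carry no molecular identifiers, so counting errors cover counting only. The p-values test differences between stages against the spread between these pools, not between single embryos.

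For each pair of stages, a fit was made to the 6 libraries concerned with edgeR 4.0.16 in R 4.3.3 (filterByExpr, TMM, quasi-likelihood test, Benjamini-Hochberg adjustment over all genes tested), as were the 3 stages on 9 libraries. A gene passed at an adjusted p of at most 0.05 and, for pairs, an absolute log2 change of at least 1. The scripts were tested on simulated counts. Alternatives were DESeq2 1.42.0 and other choices of normalization, filter, replicate block, GC correction (lowess, span 0.3) and left-out libraries. The GC correction without E10.5 replicate 3 was chosen after seeing the data. All 10 immediate early genes are named, and from each list those that passed, at most 6 per comparison by size. Some results of the lists are not reported here. The members and lists were chosen with earlier results of these data known. Coordinates are those of the deposited table, and exon overlaps and GC content come from GENCODE vM21 (GRCm38). Promoter windows are from RefSeq (GRCm38.p6).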

Additional observations from a re-analysis of the deposited data

How the results depend on the processing

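*Fosl2* passed at E12.5 against both earlier stages under every alternative run, with log2 changes of 1.64 to 1.75 against E10.5 and 1.29 to 1.44 against E11.5. The numbers of genes past the threshold, 0 in the first interval, 2 over the whole span and 2 in the last interval, ranged over 0 to 1, 1 to 2 and 1 to 2 when each library was left out in turn. The number in the test of the 3 stages, 3, ranged over 2 to 5, and was 5 with all genes of at least 1 count. With the GC correction and without E10.5 replicate 3 it was *Fosl2* alone, 1 gene, that passed between E10.5 and E12.5, with *Egr1* at 0.94 (edgeR adjusted p = 0.029). The median SD within stages ranged over 0.313 to 0.495 with libraries left out.

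The labels link samples of different stages only by a replicate number. Deviations of same-numbered libraries correlated by -0.15 to 0.22 across genes, and 5 of 9 libraries correlated best with one of their own number. These values cannot show whether same-numbered libraries share more than the number. With the replicate number as a block, 0, 2 and 2 genes passed for the pairs of stages and 3 in the test of the 3 stages.

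Changes of sign touched only differences that did not pass. In the first interval, E10.5 to E11.5, *Jund* was at 0.08 with the GC correction and 0.07 with the replicate block and GC correction, and at -0.42 to 0.07 with libraries left out. *Jun* was at -0.32 to 0.34 with libraries left out, and at -0.20 with the GC correction and without E10.5 replicate 3. Over the whole span, *Fosl1* was at 0 with DESeq2's size factors in edgeR, -0.07 with the GC correction, -0.09 with block and GC correction, -0.17 to 0.13 with libraries left out and -0.10 with the GC correction and without E10.5 replicate 3. *Jund* was at -0.08, -0.09, -0.14 to 0.34 and -0.17 in the last 4 of these, and *Atf3* at 0.03 with upper quartile normalization and -0.15 to 0.10 with libraries left out. In the last interval, *Jund* was at -0.13 with the GC correction and -0.12 with block and GC correction, and *Ier2* at -0.20 to 0.07 with libraries left out. The cause was not tested.

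Over all genes, 954 passed in E11.5 vs. E10.5, against 1592 without E10.5 replicate 3, 395 and 453 without E11.5 replicates 1 and 3, and 1511 with the GC correction and without E10.5 replicate 3. In the last interval 806 passed, against 502 when E11.5 replicate 2 was left out and 512 when E12.5 replicate 1 was. For *Fosb*, at 1 to 23 reads per library, depth limits what could be seen.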
